A study of Mus musculus with 16 samples.

Results

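The genes described here are the mouse odorant receptors with the names Olfr1141 to Olfr1318, a cluster on chromosome 2. They were chosen by name alone: every probe set whose annotation gives Olfr and a number in this range, pseudogenes left out. This gave 136 receptors of the 1080 on the array, each with 1 probe set and each a protein-coding gene of chromosome 2 in the reference gene table. The array samples are sorted cells from the olfactory mucosa of S100a5-tauGFP mice of both sexes aged 7 to 12 weeks, a line in which a green fluorescent protein is made under the control of S100a5. All groups carry this reporter. Vehicle mice received pulses of filtered air and odor mice pulses of 2-hexanone, a ketone, for 10 s every 20 min from 26 h on during 40 h in ventilated chambers. The tissue of 3 mice was combined into a pool, 4 pools per treatment were sorted, and the GFP+ and GFP- cells of each pool gave 1 array each. The 4 groups of 4 arrays are therefore vehicle GFP+, vehicle GFP-, odor GFP+ and odor GFP-.

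Each olfactory neuron chooses 1 odorant receptor gene, read from 1 allele, and sends its axon to glomeruli specific for that receptor. The receptor couples through the G protein alpha subunit Gnal to the adenylyl cyclase Adcy3 and to cyclic nucleotide-gated channels, and S100a5, which encodes a calcium-binding protein, rises with the activity of the neuron. The sort therefore splits cells by a reporter linked to activity, and the receptor transcripts of a fraction report on the receptors its neurons carry. Markers of immature neurons and of other cell types also differed between the fractions, as given below. In these bulk samples, fewer neurons that chose a receptor and less of its RNA per neuron cannot be told apart. Receptors of similar sequence form families, written MOR with a number, and relatives often lie side by side, so the cluster holds many near copies. The largest families in it were MOR245 with 21 members, MOR233 with 18, MOR231 with 17 and MOR248 with 14, and 133 of the 136 receptors had exactly 1 family number in the synonyms of the gene table.

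How close some relatives are is seen in the starts of their coding sequences. Of the 121 receptors with a window in the RefSeq table of GRCm38.p6, 91 have a gene model that begins at the start codon, so that the window holds the first coding bases. The following stretches are the first 50 coding bases, 5′ to 3′, of 4 sets of relatives whose array values are compared later. Capitals mark the positions at which the members of a set do not all share the base. The first set is family MOR234, with Olfr1261 at chr2:89993395-89993444, Olfr1262 at chr2:90002408-90002457 and Olfr1263 at chr2:90014932-90014981, all on the plus strand.
Olfr1261: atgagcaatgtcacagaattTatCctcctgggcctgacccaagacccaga
Olfr1262: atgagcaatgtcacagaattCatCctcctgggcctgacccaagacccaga
Olfr1263: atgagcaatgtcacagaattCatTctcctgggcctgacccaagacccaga
The next set holds 3 members of MOR248 on the minus strand, Olfr1294 at chr2:111538238-111538287, Olfr1297 at chr2:111622023-111622072 and Olfr1298 at chr2:111645946-111645995.
Olfr1294: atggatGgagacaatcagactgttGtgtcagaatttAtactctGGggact
Olfr1297: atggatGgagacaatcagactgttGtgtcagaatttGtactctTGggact
Olfr1298: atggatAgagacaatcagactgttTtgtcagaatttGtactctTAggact
Family MOR225 gave the remaining sets: Olfr1196 at chr2:88701278-88701327, Olfr1197 at chr2:88729548-88729597 and Olfr1200 at chr2:88768264-88768313 on the minus strand, then Olfr1181 at chr2:88423974-88424023 on the minus strand and Olfr1184 at chr2:88486734-88486783 on the plus strand.
Olfr1196: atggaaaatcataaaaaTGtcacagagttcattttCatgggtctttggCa
Olfr1197: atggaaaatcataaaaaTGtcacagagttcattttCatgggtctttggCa
Olfr1200: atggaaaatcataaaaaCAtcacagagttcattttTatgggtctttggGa
Olfr1181: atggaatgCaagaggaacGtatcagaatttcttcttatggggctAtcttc
Olfr1184: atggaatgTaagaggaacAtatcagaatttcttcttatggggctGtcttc
Olfr1196 and Olfr1197 were identical over this stretch, whereas any 2 of the 91 receptors shared a median of 18 of 50 bases. Whether the probes of such relatives cross-react was not tested, since probe sequences were not used here.

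Levels are the authors' log2 signals. An array's background floor was taken as the highest of its 23 antigenomic background probe bins, which lay at 6.16 to 7.33. Of the 136 receptors, 63 were above the floor on all 16 arrays, 59 on some and 14 on none, and 87 to 111 were above it on any given array. The 95th percentile of the arrays' negative controls lay higher, at 8.53 to 9.47. By that stricter line, 100 receptors were above background on some array, 25 of them on all 16. The sort separated the reporter gene itself: S100a5 was higher in GFP+ cells by 1.38 ± 0.25 (SE) in vehicle and 1.61 ± 0.25 in odor. Many markers of other cell types moved with the sort. All 14 immune markers were lower in GFP+ cells in both treatments, their mean level running from 10.6 to 12.5 over the GFP- arrays and from 4.77 to 5.38 over the GFP+ arrays, where 11 in vehicle and 10 in odor were under the floor on all 4 arrays. Of 8 immature neuron markers 6 were lower in vehicle and 5 in odor (mean level 11.2 to 11.7 in GFP- and 9.11 to 9.77 in GFP+ arrays). Also lower in each treatment were 6 of 8 sustentacular, 6 of 6 microvillous, 3 of 6 basal and progenitor and 2 of 2 erythroid markers. The 3 lower basal and progenitor markers were Neurog1, Mki67 and Top2a, whereas the basal markers Krt5, Krt14 and Trp63 were not called. Of these 6, in each treatment 4 were under the floor on all 4 GFP- arrays and 6 on all 4 GFP+ arrays. Their mean level was 5.34 to 5.97 over the GFP- arrays. The missing calls therefore do not show equal levels, and not all of the called markers reached the floor in either fraction. Of 8 mature neuron markers 2 were higher in vehicle and 1 in odor, with mean levels of 16.2 to 16.7 in GFP- and 16.3 to 16.9 in GFP+ arrays. Omp among them was not called (0.005 in vehicle and 0.09 in odor). With each array centred on its median, Omp passed as higher in limma (0.37, adjusted p = 0.0418 in vehicle, and 0.44, 0.0196 in odor). The part of these cell types in the receptor differences was not tested.

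The main comparison asked which receptors of the cluster differed between GFP+ and GFP- cells. In vehicle, 36 of the 136 receptors were higher and 39 lower in GFP+ than in GFP- cells at an adjusted p below 0.05 (limma, Benjamini-Hochberg over all probe sets), 75 in all (55.1%). Of all 22206 probe sets tested, 5.83% were higher and 9.86% lower (15.7% in all). In odor, from other mice, 38 were higher and 34 lower, 72 in all (52.9%), against 5.29% and 9.56% of all probe sets (14.9% in all). The cluster thus divided nearly evenly, while of the 944 other receptors 37.4% were higher and 21.2% lower in vehicle, and 37.4% and 21.3% in odor. The median difference was 0.11 in vehicle and 0.13 in odor for the cluster, 0.46 and 0.51 for the other receptors, and 0.14 in both treatments over all probe sets. The evenness depended on scale. With each array centred on its median, 52 were higher and 36 lower in vehicle (59.1% of calls higher, 48% as deposited) and 54 and 33 in odor (62.1%, 52.8% as deposited), with medians of 0.47 and 0.49. The median over the cluster ranged from -0.30 to 0.30 between the 4 vehicle pools and from -0.15 to 0.43 between the odor pools, and without vehicle replicate 4 it was -0.18 in vehicle.

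The division was nearly the same in both sets of mice. Higher in both treatments were 34 of the 136 receptors (3.03% of all probe sets, 33.8% of the other receptors) and lower in both 33 (8.37% of all probe sets, 19.4% of the other receptors). A further 13 were called in 1 treatment, 56 in neither, and none in opposite directions. The vehicle and odor differences had the same sign for 129 of the 136. Within pools, 40 receptors were higher in the GFP+ cells of all 8 pools and 37 lower in all 8. Of the 34 higher in both, 32 were among the former, the exceptions Olfr1282 and Olfr1301 being higher in 7. Of the 33 lower in both, Olfr1163 was lower in 7 pools and the other 32 in all 8. The arrays of the sorted groups did not overlap for 34 receptors above and 37 below in vehicle (9.01% and 10.0% of all probe sets) and for 36 above and 35 below in odor (9.40% and 10.6%). Without both replicate 1 pools, whose arrays deviated together more than those of other pools, 36 were higher and 33 lower in vehicle and 33 and 32 in odor.

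**Figure D1:**
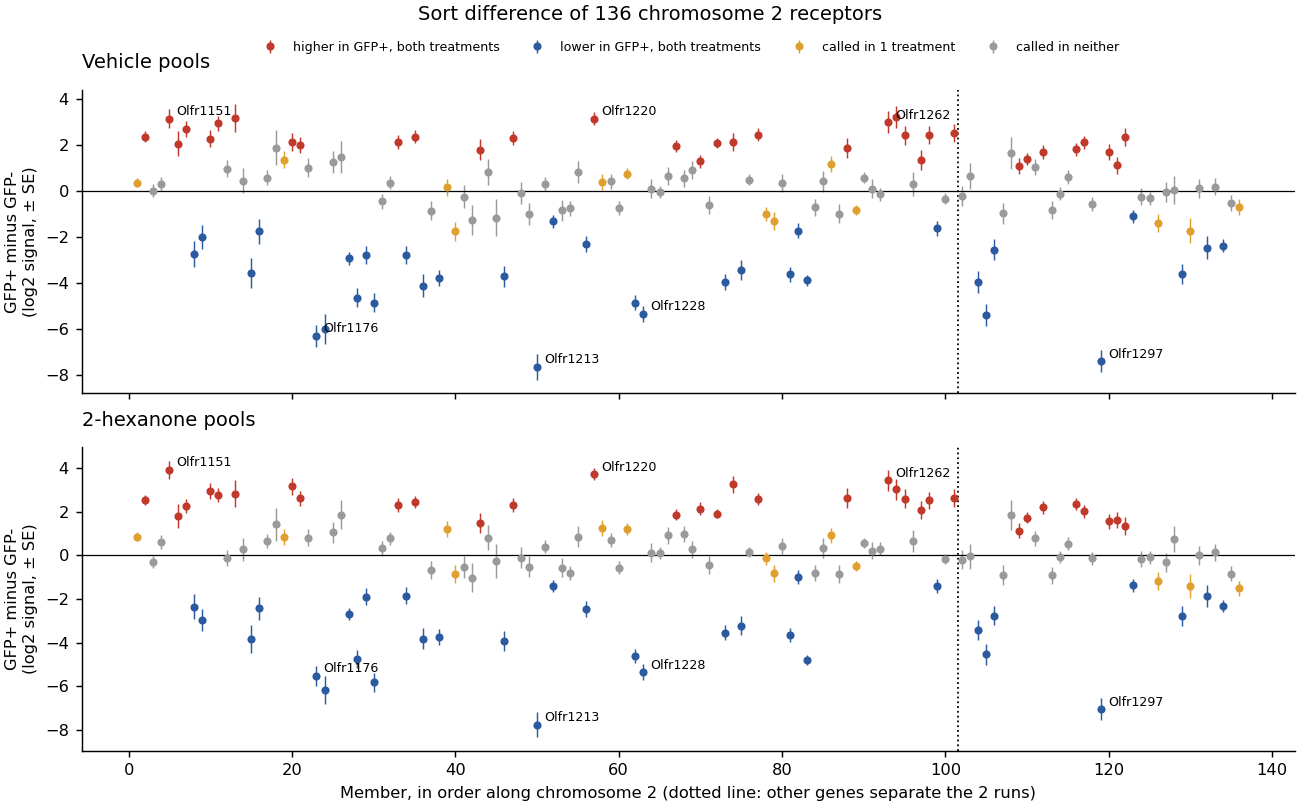
GFP+ minus GFP- log2 difference (± SE, 4 arrays per group) of each of the 136 receptors in their order along chromosome 2, in vehicle (top) and 2-hexanone pools (bottom), coloured by call. As deposited, values under the floor included, the lower receptors reach -7.66 and -7.77 and the higher ones 3.23 and 3.93, and the same receptors stand out in both panels.

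The receptors higher in both treatments had a median difference of 2.14 in vehicle and 2.41 in odor, and those lower in both a median of -3.61 and -3.42. The GFP+ arrays were all under the floor for 11 of the lower receptors in vehicle and 9 in odor. With arrays raised to their floor, the medians were 2.14 and 2.35 for the higher and -2.90 and -2.77 for the lower receptors. A difference beyond 3 log2 units in both treatments was seen for 18 lower and 3 higher receptors, and for 13 and 2 with arrays raised to their floor. Among the other receptors of the array the higher calls reached 6.28, whereas 3.23 in vehicle was the upper end here.

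Olfr1213 (MOR233) and Olfr1297 (MOR248) were lower by the most. In vehicle the GFP- arrays read 12.12, 13.62, 13.70 and 13.49 for Olfr1213 in replicates 1 to 4 and the GFP+ arrays 6.24, 4.67, 5.97 and 5.41. In odor the GFP- arrays read 12.56, 13.90, 12.07 and 13.11 and the GFP+ arrays 5.36, 6.56, 3.27 and 5.37. The groups were far apart, and 1 of 4 GFP+ arrays in each treatment was above its floor. The difference was -7.66 ± 0.56 (SE, adjusted p = 1.24e-08) in vehicle and -7.77 ± 0.56 (1.01e-08) in odor, and with the arrays under the floor raised to it the receptor was 108-fold and 71.4-fold lower.

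Olfr1297 was lower by less than Olfr1213 as deposited, and by more once arrays were raised to their floor. Most GFP+ arrays of Olfr1213 were under the floor, so its raised folds are lower limits and the order of these receptors is not settled. The GFP- arrays of Olfr1297 read 14.93, 14.04, 13.96 and 13.61 in vehicle and 15.12, 14.09, 13.80 and 13.33 in odor, against 7.53, 7.35, 7.02 and 4.98 and 7.82, 6.71, 7.09 and 6.49 in GFP+ cells. For this receptor, all GFP+ arrays but 1 in vehicle were above the floor, though each read under the 95th percentile of the negative controls. It was 133-fold lower in odor (-7.06 ± 0.49, adjusted p = 6.22e-09) and 131-fold lower in vehicle with that array raised to its floor (-7.42 ± 0.49, 3.48e-09).

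Olfr1228 and Olfr1226, both MOR233, were above the floor on every array. Olfr1228 read 13.49, 13.46, 13.99 and 14.26 in vehicle GFP- and 8.63, 8.55, 7.66 and 8.92 in vehicle GFP+ cells, and 14.19, 14.10, 12.59 and 13.93 and 8.44, 8.85, 7.54 and 8.53 in odor. It was 41.1-fold lower in each treatment (-5.36 ± 0.36, adjusted p = 4.29e-09 in vehicle and 3.95e-09 in odor). Olfr1226 was 29.1-fold lower in vehicle and 24.7-fold lower in odor. The 2 receptors lie next to each other and were lower to a like degree in both sets of mice.

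Of the other strongly lower receptors, Olfr1176 (MOR174) stood at -6.32 in vehicle and -5.54 in odor, with 3 and 2 of 4 GFP+ arrays above the floor. Olfr1252 stood at -3.90 and -4.80, the latter -4.68 with arrays raised to their floor. In 8 of the 33, no GFP+ array of either treatment was above the floor, so the fold is a bound. Olfr1278 (MOR245) was at least 16.2-fold lower in vehicle and 9.50-fold lower in odor by that bound. In GFP- cells, 31 of the 33 were above the floor on all 8 arrays. The 2 that were not, Olfr1163 and Olfr1279, were above it on only 3 of 16 arrays each, and no fold is given for them. Raised to the floor, neither passed (Olfr1163 -0.28 and Olfr1279 -0.15 in vehicle), and the vehicle call of Olfr1163 was also lost without vehicle replicate 1 (-1.0, adjusted p = 0.262), 2 (0.0628) or 4 (0.109).

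Olfr1220 (MOR233) was among the 3 receptors higher by over 3 log2 units in both treatments. Its GFP+ arrays read 15.19, 15.77, 15.61 and 16.24 in vehicle and 15.05, 15.75, 14.97 and 15.33 in odor. The GFP- arrays read 12.62, 12.15, 13.00 and 12.44 and then 12.10, 11.70, 11.54 and 10.81. It was 8.88-fold higher in vehicle (3.15 ± 0.28, adjusted p = 1.39e-07) and 13.3-fold higher in odor (3.73 ± 0.28, 1.59e-08), and no GFP+ array overlapped a GFP- array. Olfr1220 and Olfr1213 thus lay at opposite ends although they belong to the same family and are 7 receptors apart in the order along the cluster.

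Olfr1151 (MOR177) was higher too, from GFP- values near or under the floor. Its GFP+ arrays read 10.50, 10.00, 9.71 and 9.03 in vehicle and 10.37, 9.34, 10.29 and 9.20 in odor, and its GFP- arrays 6.72, 7.01, 7.47 and 5.42 and then 5.75, 6.36, 5.30 and 6.09. No odor GFP- array was above its floor, so it was at least 8.49-fold higher in odor (3.93 ± 0.41, adjusted p = 9.26e-07). In vehicle, with the 1 array under the floor raised to it, it was 7.72-fold higher (3.15 ± 0.41, 1.35e-05). The other receptors of this end were Olfr1157 (MOR174; 7.79-fold in vehicle and 6.89-fold in odor), Olfr1160 (3.19 and 2.84 on the log2 scale), Olfr1242, Olfr1168, Olfr1156, Olfr1274, Olfr1246 and Olfr1264, the last 6 at 2.13 to 2.54 in vehicle and 2.59 to 3.28 in odor. With arrays raised to their floor, Olfr1160 stood at 2.85 and 1.93, Olfr1168 at 1.76 and 2.56, and Olfr1156 at 2.28 and 2.76. In all but 1 of the 34 the 8 GFP+ arrays were above the floor, and 21 were above it on all 16 arrays. The exception, Olfr1282, was above it on 5 arrays in all, at least 1.03-fold higher in vehicle, with no fold in odor, and it did not pass when raised to the floor (0.09 and 0.24). Its calls and those of Olfr1301 were also lost without single pools, with adjusted p up to 0.250 for Olfr1282 and 0.243 for Olfr1301.

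**Figure D2:**
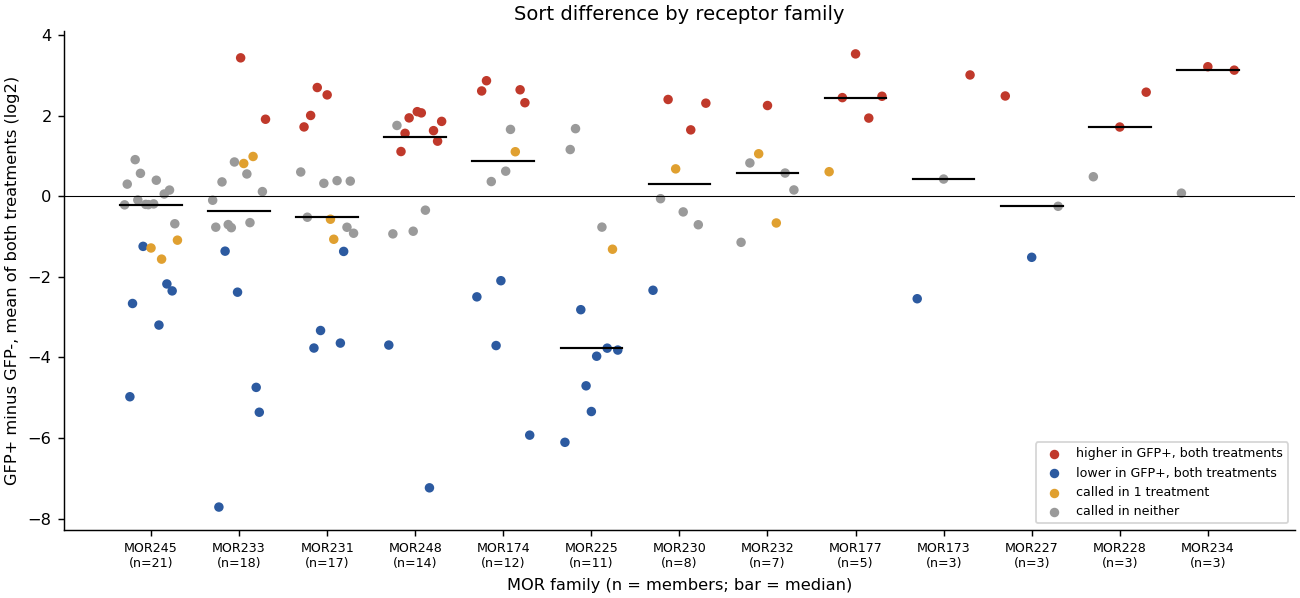
GFP+ minus GFP- log2 difference, as the mean of both treatments, of each receptor in the families with at least 3 members, coloured by call, with the family median as a bar. MOR225 and MOR177 lie mostly on 1 side of 0, whereas MOR233, MOR231 and MOR174 span both sides.

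By family, the receptors behaved unequally. MOR225 had 8 of 11 members lower and none higher in vehicle, and 7 lower and none higher in odor, with medians of -3.72 and -3.75, or -1.84 and -2.33 with arrays raised to their floor. MOR245 had 8 of 21 lower and none higher in vehicle and 7 lower in odor, with medians near 0 (-0.32 in both), and those turned to 0.04 with centred arrays. The absence of higher calls in these families did not hold throughout. With the pool as a random block, Olfr1179 of MOR225 (1.26, adjusted p = 0.0480) and Olfr1284 of MOR245 (1.03, 0.0322) passed as higher in vehicle, and Olfr1180 of MOR225 (1.88, 0.0354) in odor. With centred arrays 2 members of each family were higher in each treatment, and with arrays raised to their floor 1 member of MOR225 in each treatment and 1 of MOR245 in vehicle.

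MOR177 and MOR248 had more higher than lower calls. All 5 MOR177 members were higher in odor and 4 in vehicle, though 3 were higher in odor without odor replicate 1 and 3 in vehicle without vehicle replicate 3. Olfr1143 was 5.20-fold and 5.77-fold higher in vehicle and odor, with GFP+ arrays at 12.93, 12.64, 13.14 and 12.76 and GFP- arrays at 10.96, 10.66, 10.42 and 9.92 in vehicle. In odor these were 12.66, 12.81, 13.48 and 13.09 against 10.52, 10.48, 10.69 and 10.25, and the fractions did not overlap. Olfr1153 was at least 4.41-fold higher in vehicle, and Olfr1152 was higher by 2.07 and 1.82, a call lost without odor replicate 1, 2 or 3 in odor (adjusted p 0.0584 to 0.151) and without vehicle replicate 3 in vehicle (0.0545). The member Olfr1141 was under the floor on all 16 arrays, so its call in odor has no fold. That call was lost with arrays raised to their floor (0.02, adjusted p = 0.961) and without odor replicate 1 (0.72, 0.0539). In MOR248, 8 of 14 were higher and 2 lower in each treatment, and the family median was 1.26 and 1.47. The lower ones were Olfr1297 and Olfr1277 (-3.96 and -3.42, or -3.38 and -2.66 with arrays raised to their floor).

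Other families were mixed. MOR233 had 2 higher and 5 lower in vehicle and 4 and 5 in odor, and MOR231 had 4 and 6 and then 4 and 4. In MOR174, 5 were higher and 4 lower in vehicle and 4 and 4 in odor, from -6.32 (Olfr1176) to 2.96 (Olfr1157) in vehicle. MOR230 had 3 higher and 1 lower in vehicle and 4 and 1 in odor, with Olfr1195 at 2.38 and 2.44 and Olfr1183 at -2.78 and -1.89. MOR232 had 2 higher and 1 lower in vehicle and 1 higher in odor. Its highest member Olfr1257 (1.88 and 2.64) lost the vehicle call without vehicle replicate 1 (1.23, adjusted p = 0.0667), where 0 of the 7 members were higher. In MOR227, the neighbours Olfr1270 (2.45 and 2.54) and Olfr1271 (-1.62 and -1.40) were higher and lower in both treatments, though Olfr1271 did not pass in odor without odor replicate 3 (-1.29, adjusted p = 0.0533). Of the 14 receptors under the floor on all 16 arrays, 13 were called in neither treatment, and the other was Olfr1141.

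MOR225 and MOR230 lie mingled along the chromosome, from Olfr1178 to Olfr1209, and their called receptors mostly took different sides there. Along that stretch Olfr1178, Olfr1181, Olfr1182, Olfr1184, Olfr1196, Olfr1198 and Olfr1208 of MOR225 were lower in both treatments. Of the 8 MOR230 members, 3 were higher in both, Olfr1195 and Olfr1205 between them and Olfr1209 after them, and 1 was lower, Olfr1183. Not all of MOR225 was lower: Olfr1179 (1.26 and 1.07) and Olfr1180 (1.48 and 1.88) stood above 0 without a call. Olfr1197 and Olfr1200 were not lower in both. The call of Olfr1205 was lost in vehicle without vehicle replicate 2 (1.73, adjusted p = 0.0533) and in odor without odor replicate 1 (1.19, 0.195) or 4 (1.40, 0.135). Olfr1178 read 11.36, 10.70, 12.15 and 10.87 in vehicle GFP- and 5.35, 6.74, 5.78 and 3.10 in vehicle GFP+ cells, and 11.32, 10.95, 9.88 and 11.89 and then 3.99, 5.73, 3.78 and 5.80 in odor. None of its odor GFP+ arrays was above the floor and it was at least 19.5-fold lower there (-6.19 ± 0.65, adjusted p = 1.05e-06). Olfr1182 was at least 8.96-fold lower in vehicle and 7.56-fold lower in odor, Olfr1198 at least 8.27-fold and 8.50-fold, and Olfr1208 at least 3.51-fold and 5.02-fold. Against these, Olfr1195 read 9.81, 9.42, 9.92 and 9.45 in vehicle GFP- and 11.94, 12.24, 11.86 and 12.06 in vehicle GFP+ cells, a 2.38 ± 0.28 difference (adjusted p = 3.66e-06) with no overlap.

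Close relatives did not always share a side. Among the 4095 pairs of the 91 receptors whose coding start is in the sequence table, 13 pairs had at least 48 of the 50 bases in common and 5 pairs all 50. Their median gap, the size of the difference between the 2 receptors' sort differences, was 2.09 in vehicle and 2.24 in odor. For comparison, any 2 of the 133 receptors with a family number had a median gap of 1.83 in vehicle and 1.82 in odor within a family (785 pairs), and of 2.06 and 2.11 between families (7993 pairs). These pairs share receptors and arrays, so the gaps are a description. Both receptors were called in the same direction in both treatments in 2 of the 13 pairs and in opposite directions in 1. Those in the same direction were Olfr1262 with Olfr1263, both higher, and Olfr1250 with Olfr1252, both lower.

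The opposite pair was Olfr1294 and Olfr1297, whose printed starts differ at 2 of the 50 bases. Olfr1294 read 8.41, 8.18, 8.50 and 7.78 in vehicle GFP- and 9.86, 11.02, 10.24 and 10.26 in vehicle GFP+ cells, and 8.06, 7.81, 8.59 and 8.93 and then 10.08, 9.89, 10.85 and 10.65 in odor. It was 4.37-fold and 4.06-fold higher in vehicle and odor (2.13 and 2.02 ± 0.29, adjusted p = 2.75e-05 and 5.08e-05). Olfr1297 had gone the other way by over 100-fold, a gap of 9.55 log2 units in vehicle and 9.08 in odor. Olfr1298, the nearest receptor to Olfr1297 on the other side, was higher as well, by 1.69 ± 0.34 in vehicle (adjusted p = 0.00154) and 1.57 ± 0.34 in odor (0.00296). Its GFP- arrays read 8.54, 9.03, 8.17 and 8.17 in vehicle and 8.16, 8.63, 9.13 and 8.46 in odor, all under its GFP+ arrays of 9.99, 10.49, 10.68 and 9.52 and of 9.51, 10.04, 9.88 and 11.25.

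In MOR234, Olfr1262 and Olfr1263 were higher while Olfr1261 was not called. Olfr1262 read 11.27, 9.38, 9.63 and 9.94 in vehicle GFP- and 12.98, 13.28, 13.56 and 12.41 in vehicle GFP+ cells, and 10.84, 8.15, 9.23 and 10.40 and then 13.11, 12.93, 13.21 and 13.14 in odor. It was 7.99-fold higher in vehicle (3.00 ± 0.47, adjusted p = 0.000132) and 10.9-fold in odor (3.44 ± 0.47, 2.84e-05). Olfr1263 was 9.41-fold higher in vehicle (3.23 ± 0.48, 6.02e-05) and 8.22-fold in odor (3.04 ± 0.48, 0.00012). Olfr1261, which differs from Olfr1262 at 1 of the 50 printed bases, read 12.06, 12.02, 12.35 and 10.85 in vehicle GFP- and 11.87, 12.03, 11.23 and 11.58 in vehicle GFP+ cells. In odor it read 12.01, 11.45, 11.12 and 11.94 against 11.93, 12.19, 11.54 and 12.09. The fractions overlapped in both treatments, with differences of -0.14 ± 0.30 (adjusted p = 0.803) and 0.31 ± 0.30 (0.558), the former above 0 with centred arrays (0.22) and without vehicle replicate 3 (0.18).

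The identical starts of Olfr1196 and Olfr1197 also went with unlike values. Olfr1196 read 12.61, 11.93, 11.83 and 11.56 in vehicle GFP- and 8.0, 7.55, 7.99 and 7.91 in vehicle GFP+ cells, and 12.90, 11.10, 10.81 and 12.74 and then 9.07, 7.83, 6.65 and 8.74 in odor. It was 17.4-fold lower in vehicle (-4.12 ± 0.49, adjusted p = 4.79e-06), and in odor, with 1 GFP+ array raised to its floor, 13.9-fold lower. Olfr1197 read 15.25, 15.10, 15.47 and 14.73 in vehicle GFP- and 13.75, 14.58, 13.82 and 14.99 in vehicle GFP+ cells, which overlapped, and in odor 15.54, 15.00, 15.26 and 15.51 against 14.50, 14.91, 13.22 and 15.99. Its difference was -0.85 ± 0.42 in vehicle (adjusted p = 0.196) and -0.67 ± 0.42 in odor (0.332). Olfr1200 was lower in vehicle (-1.76 ± 0.42, adjusted p = 0.00652) with overlapping arrays, a call lost without vehicle replicate 3 (-1.27, 0.0710) and without both replicate 1 pools (-1.60, 0.0737), and was not called in odor (-0.86, 0.203).

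Among the other identical starts, Olfr1154 was lower in vehicle (-2.74 ± 0.56, adjusted p = 0.00162) and odor (-2.35, 0.00608, though 0.0697 without odor replicate 2), while Olfr1158 was under the floor on all 16 arrays. In the set Olfr1249, Olfr1251 and Olfr1253, Olfr1251 was lower (-1.73 in vehicle and -1.0 in odor). The odor call of Olfr1251, at an adjusted p of 0.0468, was lost without any of the odor replicates (0.0544 to 0.195) and with centred arrays (0.105). Olfr1181 and Olfr1184, whose printed starts differ at 3 of the 50 bases and which are not among the 13 pairs, did share a side. Olfr1184 was at least 11.5-fold lower in vehicle and 9.64-fold lower in odor, and Olfr1181 at least 3.57-fold and 2.48-fold. No GFP+ array of either receptor was above its floor.

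**Figure D3:**
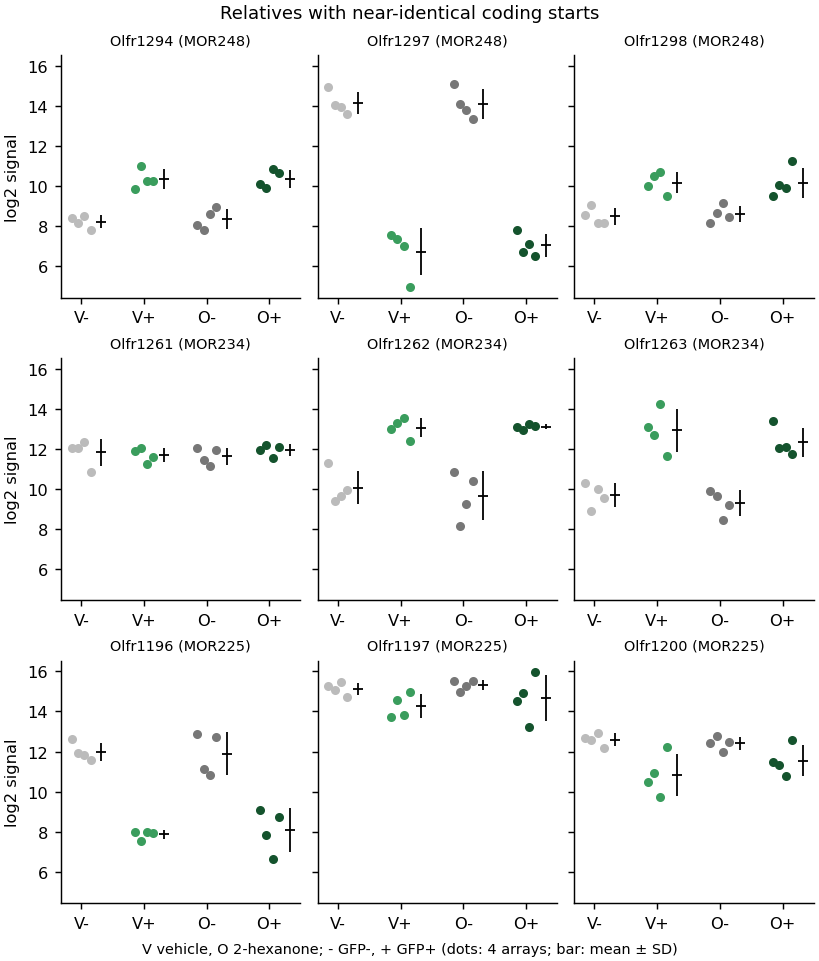
Log2 signal on each array (dots) with the mean ± SD of 4 arrays for 3 sets of relatives whose coding starts are nearly identical, in vehicle (V) and 2-hexanone (O), GFP- (grey) and GFP+ (green). Olfr1297 falls from 13.33 or above in GFP- to 7.82 or below in GFP+ cells while Olfr1294 and Olfr1298 are higher in GFP+ cells. Olfr1261 and Olfr1197 show overlapping fractions beside Olfr1262 and Olfr1196, whose fractions are apart, while those of Olfr1200 overlap in vehicle.

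Position along the cluster was also described. By the order of genes in the reference table, the receptors form 2 runs, with other protein-coding genes between them: 101 receptors from Olfr1141 to Olfr1274, of which 26 were higher and 25 lower in both treatments, and 35 from Olfr1275 to Olfr1318, with 8 and 8. Among 134 pairs of neighbours, both were higher in 11, both lower in 11 and the neighbours opposite in 13. The median gap between neighbours was 1.86 in vehicle and 1.85 in odor. It was 1.84 and 1.79 for the 84 pairs of the same family and 1.83 and 1.81 for the 44 of different families, close to the gap of any pair within a family.

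The TAATTA core bound by homeodomain factors such as Lhx2 is known from receptor promoters. For this reason the upstream windows of Olfr1213 and Olfr1220, the MOR233 receptors at opposite ends, are given. Both are the 250 bases before the start of the RefSeq gene model (GRCm38.p6, minus strand), 5′ to 3′, at chr2:88980268-88980517 and chr2:89097964-89098213, with TAATTA in capitals where present.
Olfr1213: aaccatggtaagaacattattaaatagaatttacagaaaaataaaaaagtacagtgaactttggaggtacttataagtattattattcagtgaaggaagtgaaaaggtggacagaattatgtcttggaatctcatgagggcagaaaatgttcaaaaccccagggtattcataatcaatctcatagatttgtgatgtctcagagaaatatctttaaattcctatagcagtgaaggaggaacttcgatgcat
Olfr1220: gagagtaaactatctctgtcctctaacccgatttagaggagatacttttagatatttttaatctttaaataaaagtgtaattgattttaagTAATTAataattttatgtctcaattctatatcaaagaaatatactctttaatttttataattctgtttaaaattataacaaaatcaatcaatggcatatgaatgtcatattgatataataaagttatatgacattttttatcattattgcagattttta
The first window holds no TAATTA and the other holds 1. Over windows of 300 bases (250 before and 50 after the model start), TAATTA, which reads the same on both strands, was present in 36 of 123 windows of the cluster (29.3%), in 17.1% of 821 windows of other receptors and in 5.29% of 32851 windows of all genes. The windows also differed in base composition, with A and T making up 67.6%, 63.3% and 46.2% of bases. It was present for 9 of 31 receptors higher in both treatments, for 11 of 32 lower in both and for 11 of 46 called in neither. A match in a window is not a binding site, and 91 of the 121 receptors with a window have a model that starts at the start codon, so that their window may not hold the promoter.

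The genes that serve receptor function in every olfactory neuron were counted beside the receptors. Of 23 genes of transduction, receptor chaperoning and receptor choice, 4 were higher and none lower in GFP+ cells in vehicle, and 3 were higher and 1 lower in odor, with medians of 0.23 and 0.28. That is 17.4% called in each treatment, against 15.7% and 14.9% of all probe sets. By direction, 17.4% were higher in vehicle and 13.0% in odor, against 5.83% and 5.29% of all probe sets. Lower were 0% and 4.35%, against 9.86% and 9.56%. The phosphodiesterases Pde1c (0.94 ± 0.18 in vehicle, 1.10 ± 0.18 in odor) and Pde4a (0.68 and 0.82), which degrade cyclic AMP, were higher in both, and so was the calcium-activated chloride channel gene Ano2 (0.64 and 0.68). Adcy3 was higher in vehicle (0.50 ± 0.14, adjusted p = 0.0229). Cbx5, a heterochromatin protein gene, was lower in odor (-0.94 ± 0.24, adjusted p = 0.0121). The calls of Adcy3, Ano2, Pde4a and Cbx5 were each lost without 1 of several pools, and that of Cbx5 also with centred arrays (-0.59, 0.0609). The receptor chaperone genes Rtp1 (0.13 and 0.16) and Rtp2 (0.36 and 0.49) did not pass, although Rtp2 did with centred arrays (0.72, adjusted p = 0.0258 in vehicle, and 0.84, 0.0131 in odor).

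The remaining comparisons asked whether 2-hexanone changed the receptors. No receptor of the cluster was called in GFP+ cells, in GFP- cells or for the change of the sort difference with odor. Over all 22206 probe sets 2 were called in GFP+ cells (0.00901%), 0 in GFP- cells (0%) and 2 for the change (0.00901%). At an unadjusted p below 0.05 in limma, 8 receptors passed in GFP+ cells (5.88%, 3.91% of all probe sets), 8 in GFP- cells (5.88%, 2.46% of all) and 1 for the change (0.735%, 2.93% of all). Of the 944 other receptors, 8.16% passed in GFP+ cells, 5.30% in GFP- cells and 4.24% for the change. Median differences of odor against vehicle were 0.02 in GFP+ and -0.09 in GFP- cells, and 0.10 for the change. With 1 pool left out they ran from -0.04 to 0.11, from -0.20 to -0.03 and from 0.04 to 0.27, and the median in GFP+ cells was 0.17 with arrays raised to their floor. These do not show equal levels: the 95% interval lay within 2-fold either way for 56 of 136 receptors in GFP+ cells, 60 in GFP- cells and 16 for the change.

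Olfr1247 (MOR231) had the lowest p in GFP+ cells. It read 12.80, 12.60, 11.51 and 12.57 in vehicle GFP+ and 12.96, 14.19, 13.61 and 13.48 in odor GFP+ cells, with every odor array above every vehicle array. The difference was 1.19, with a 95% interval of 0.53 to 1.84 and an adjusted p of 0.958. In GFP- cells its arrays overlapped, at 13.23, 13.62, 13.60 and 13.05 in vehicle and 13.98, 12.94, 13.96 and 13.87 in odor. Accordingly it was lower in GFP+ than in GFP- cells in vehicle (-1.0, adjusted p = 0.0338) and not called in odor (-0.13, 0.839), but the change between the 2, 0.87 with an interval of -0.05 to 1.80, did not pass.

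The other receptors of lowest p in GFP+ cells were Olfr1276 (-1.47, interval -2.65 to -0.28), Olfr1233 (0.90, 0.10 to 1.69), Olfr1252 (-0.53, -1.01 to -0.06) and Olfr1195 (-0.62, -1.20 to -0.04). Their groups overlapped, and none passed the adjusted threshold. Olfr1276 read 7.02, 8.28, 10.07 and 9.07 in vehicle GFP+ and 6.17, 8.05, 5.93 and 8.43 in odor GFP+ cells, 2 of the latter being under the floor. Groups that did not overlap in GFP+ cells were Olfr1247 and Olfr1251 above and Olfr1205 below in odor (1.01% and 1.00% of all probe sets were above and below).

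In GFP- cells Olfr1199 (MOR230) had the lowest p. It read 8.39, 8.76, 9.43 and 8.04 in vehicle GFP- and 7.40, 6.81, 7.20 and 6.50 in odor GFP- cells, so that all odor arrays were under all vehicle arrays. The difference was -1.68, with an interval of -2.45 to -0.91, and did not pass the adjusted threshold. Its GFP+ arrays read 8.58, 9.06, 8.65 and 8.97 in vehicle and 8.79, 7.63, 7.25 and 9.08 in odor. Odor arrays were under all vehicle arrays in GFP- cells for 4 receptors, Olfr1199, Olfr1220 (-1.01, interval -1.60 to -0.42), Olfr1195 (-0.68, -1.26 to -0.10) and Olfr1276 (-0.78, -1.97 to 0.40), and above them for none (0.833% and 0.941% of all probe sets). Olfr1183 (-0.96) and Olfr1158 (0.89, under the floor on all arrays) completed the 5 of lowest p.

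**Figure D4:**
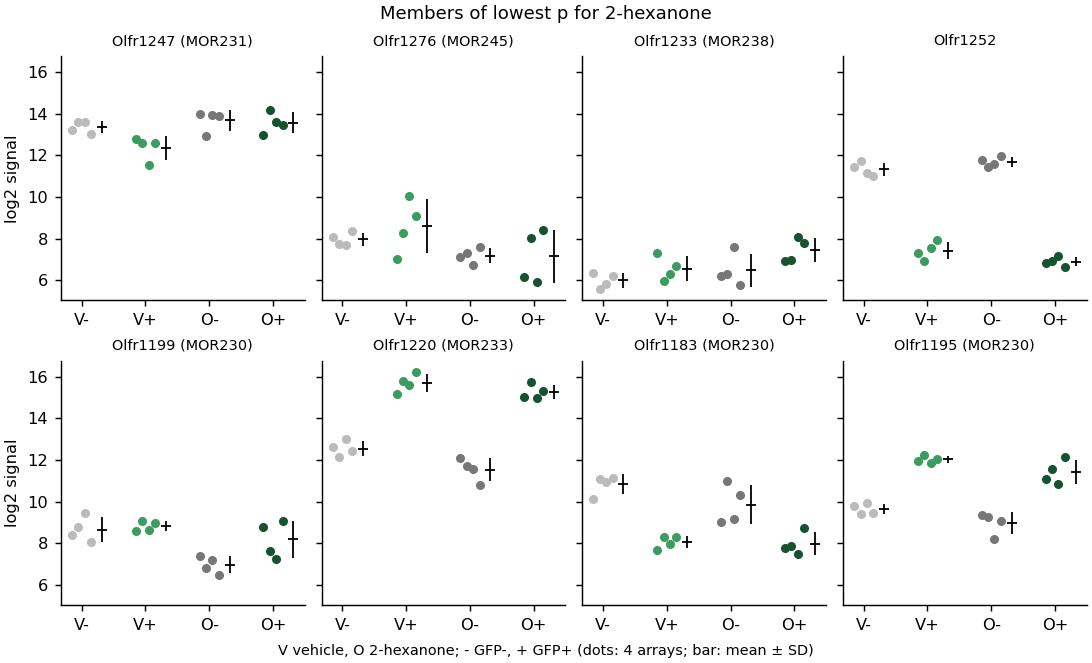
Log2 signal on each array (dots) with the mean ± SD of 4 arrays for 8 receptors among those of lowest p for 2-hexanone, in vehicle (V) and 2-hexanone (O), GFP- (grey) and GFP+ (green). Olfr1247 in GFP+ cells and Olfr1199 in GFP- cells show odor arrays apart from vehicle arrays, and no difference passed the adjusted threshold.

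For the change of the sort difference with odor, Olfr1252 had the lowest p. It read 11.42, 11.73, 11.14 and 11 in vehicle GFP- and 7.30, 6.92, 7.56 and 7.94 in vehicle GFP+ cells. In odor these were 11.78, 11.43, 11.59 and 11.97 against 6.85, 6.91, 7.17 and 6.64. It was thus lower in GFP+ cells in both treatments, and the change was -0.90 with an interval of -1.57 to -0.23 (adjusted p = 0.9995). The odor GFP+ array of replicate 1 was under its floor of 7.33. With arrays raised to their floor, the sort differences of Olfr1252 were -3.90 in vehicle and -4.68 in odor. Olfr1238 (0.85), Olfr1199 (1.05), Olfr1242 (1.14) and Olfr1158 (-1.08) followed, with intervals that included 0. For each of the 13 receptors called in 1 treatment, the change between treatments did not pass either, at an unadjusted p of 0.0565 or more in limma, so none of them is shown to differ between vehicle and 2-hexanone.

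**Figure D5:**
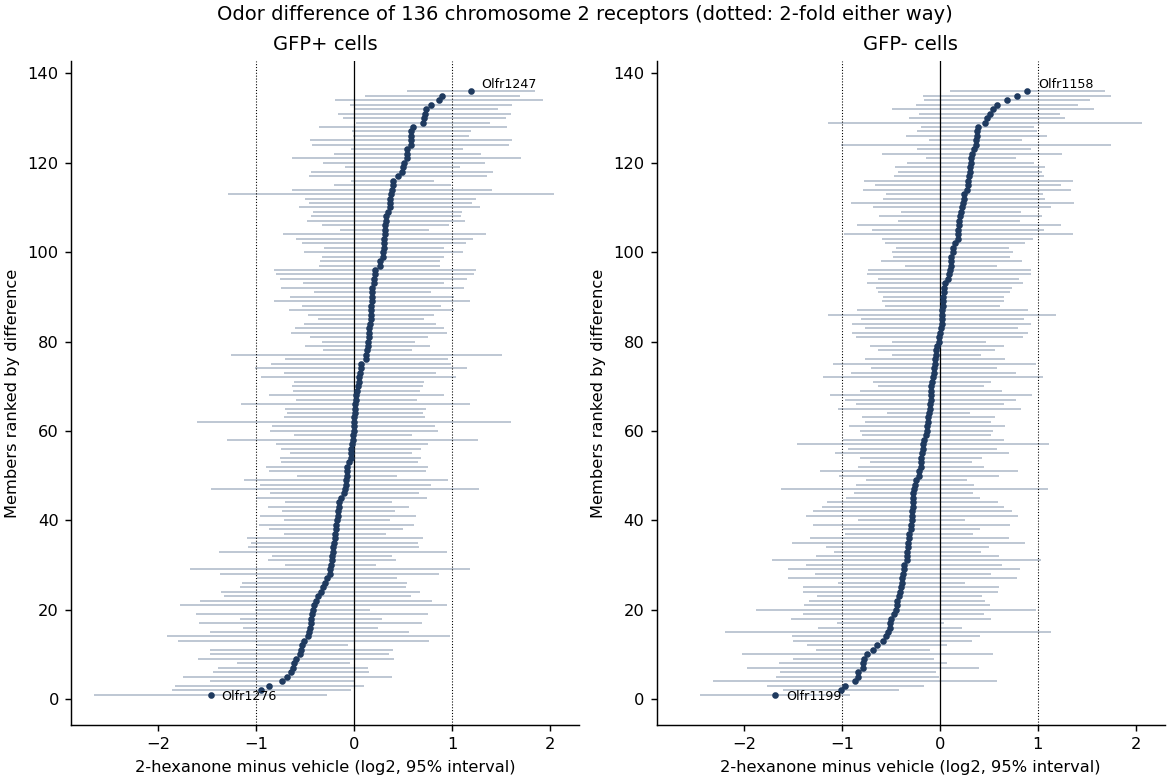
Odor minus vehicle log2 difference with its 95% interval for each of the 136 receptors, ranked, in GFP+ (left) and GFP- cells (right), with dotted lines at 2-fold either way. Differences run from -1.47 to 1.19 in GFP+ and from -1.68 to 0.89 in GFP- cells, and many intervals cross a dotted line.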

How the data were processed

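Log2 signals per probe set were deposited for 16 Clariom S mouse arrays, hybridised with cRNA from 50 to 100 ng of RNA each. The authors' software was Affymetrix Expression Console (submitters' processing notes), with version, summarisation and array build not given in the sources used here. Its log2 values reach 19.81 and start at 1.25, which is beyond 16-bit scanner data, so that a transformation nobody states bears on each difference and fold. Precision is limited by the number of arrays. The arrays' medians lay between 5.70 and 5.76 for GFP+ cells and between 6.06 and 6.12 for GFP- cells.

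Control rows (6640 of 28846) were dropped, which left 22206 probe sets, 19572 of them with a symbol in the platform's annotation. The 136 receptors were found in the GRCm38.p6 gene table by Entrez identifier, from which families and gene order were read, and 121 had RefSeq windows. Group means (4 groups, 16 arrays, 12 residual degrees of freedom) were fitted by limma 3.58.1 in R 4.3.3 with eBayes. The threshold was a Benjamini-Hochberg adjusted p of 0.05 over every probe set. GFP+ was set against GFP- within vehicle and within odor, odor against vehicle within GFP+ and within GFP-, and the sort differences of both treatments against each other. The script was tested on simulated data. Folds written "at least" apply where no array of the dimmer group reached its floor: each of these arrays was raised to the floor, and the mean was set against that of the brighter group. Python 3.11.15 with matplotlib 3.10.9 drew the plots.

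Earlier results of these data were known when the receptors, lists, tests and naming rule were chosen. The rule named the 12 highest and 12 lowest receptors called the same way in both treatments, the 5 of lowest p per odor comparison, the highest and lowest member of each family of 6 or more, S100a5, Omp and the called genes of the transduction list. No protein sequences were used, so a rule on protein identity was replaced, after values were seen, by pairs sharing at least 48 of 50 coding bases. Further members of MOR177, MOR225 and MOR234, neighbours, genes named from the transduction list that were not called, and receptors with groups that did not overlap were also named after values were seen.

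The 2 fractions of a pool come from the same mice according to the titles, which pairs them. Array deviations from their group's mean correlated between the fractions of odor pools 1 to 4 at 0.425, 0.0749, 0.161 and 0.109, and of vehicle pools 1 to 4 at 0.352, 0.0136, 0.0516 and 0.0837. Alternatives were a block for the pool or the replicate number, quantile normalization, centred arrays, a filter on dim probe sets, values raised to the floor, a trended robust prior, array weights, only named probe sets, only the arrays compared, and each pool left out.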

Additional observations from a re-analysis of the deposited data

Results flagged for a closer look

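In a group of 4 arrays, a value was singled out where its gap to the nearest of the other 3 was large against the whole range of the group. Of 288 groups (71 genes and the cluster's median), 11 held such a value, and chance flags about 1 in 20 groups. In vehicle, Olfr1213 read 12.12 in GFP- replicate 1 and 13.49 to 13.70 in the others, Olfr1182 read 10.28 in GFP- replicate 2 (others 9.29 to 9.46) and 6.43 in GFP+ replicate 4 (others 4.39 to 4.64, all under the floor), and Olfr1180 read 7.39 in GFP+ replicate 3 (others 8.84 to 8.98). Olfr1251 read 7.28 in vehicle GFP+ replicate 3 (others 8.50 to 8.74). Omp, the marker of mature olfactory neurons, read 19.19 in vehicle GFP+ replicate 3 and 19.42 to 19.45 in the others. In odor, Olfr1228 read 12.59 in GFP- replicate 3 (others 13.93 to 14.19), Olfr1226 read 7.22 in GFP+ replicate 3 (others 8.44 to 8.53), and Olfr1247 read 12.94 in GFP- replicate 2 (others 13.87 to 13.98). Under or near the floor, Olfr1265 read 4.85 in odor GFP- replicate 3 (others 6.42 to 6.48) and Olfr1282 read 6.55 there (others 4.96 to 5.08).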

How the results depend on the processing

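No receptor called in the sort comparisons was called in the opposite direction under another setting. A setting lost 0 to 10 of the 75 vehicle or 72 odor calls, the fit to only the arrays compared not being counted here. Counts in vehicle ran from 30 to 52 higher and 33 to 40 lower, and in odor from 31 to 54 and 31 to 37. The highest counts came with centred arrays for higher and with the pool as a fixed block for lower calls. Centring also moved the median of the cluster to 0.47 in vehicle and 0.49 in odor. With 1 pool left out, the vehicle median ran from -0.18 to 0.20 and the odor median from -0.01 to 0.22, vehicle counts from 30 to 36 higher and 33 to 39 lower, and odor counts from 31 to 39 and 31 to 36. The odor comparisons gave 0 calls under every setting run. With the pool as a random block, 41 were higher and 39 lower in vehicle and 43 and 35 in odor. As a fixed block they were 41 and 40, and 45 and 37. Beside the changes given for Olfr1179, Olfr1180 and Olfr1284, the random block brought calls in vehicle, among others for Olfr1158, under the floor on all arrays (0.97, adjusted p = 0.0465), and Olfr1173 (1.02, 0.0459), and lost none. The fixed block lost 4 vehicle calls and 1 odor call. Odor and vehicle pools share only replicate numbers (correlations 0.0310 to 0.419), and with the number as a block 42 were higher and 40 lower in vehicle and 45 and 36 in odor. Of 3220 values of single genes under the alternatives, 3063 kept direction and side of the threshold, 60 gained and 84 lost a call, and 13 changed sign, none of them called. These were Olfr1261 in vehicle (0.22 centred, -0.43 to 0.18 with 1 pool left out) and Olfr1158 in odor (0.24 centred, 0.015 raised to the floor, 0.011 without both replicate 1 pools, -0.36 to 0.062 with 1 pool left out). Olfr1158 and Olfr1141 in vehicle (-0.098 each) and the change of Olfr1158 (0.11) turned when raised to the floor. Omp in vehicle ran from -0.042 to 0.055 and Olfr1249 in vehicle from -0.22 to 0.85 with 1 pool left out. The cause of these changes was not tested. The second-highest probe set could not be tried, since each receptor has 1. Signal over background limits the folds: 73 of 136 receptors were under the background floor on some or all arrays, where they are bounds or rest on raised values.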
